A study of Homo sapiens with 10 samples.

Results

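The 36 genes described here encode proteins that fold, disulfide-bond, import or discard proteins in the endoplasmic reticulum (ER). The list is one of gene symbols and its rule uses no measured value, although it was drawn up with earlier results of these data known. All 36 were found among its 57353 gene symbols and passed the filter on low counts with 17230 genes in all. They fall into 11 chaperones and co-chaperones, 7 disulfide enzymes, 2 prolyl isomerases, 4 translocon subunits, 11 genes of ER-associated degradation (ERAD) and CREB3L2, a transcription factor held in the ER membrane. RNA-seq was run on 10 samples of LNCaP-C4-2, a castration-resistant human prostate cancer cell line, in 4 groups. Knockdown cells (KD, n = 3) carried an shRNA against CPT1A, which encodes the carnitine palmitoyltransferase that feeds long-chain fatty acids into mitochondrial oxidation, and their controls (NT, n = 2) a non-targeting shRNA, both under puromycin at 1 ug/ml. Overexpressing cells (OE, n = 3) carried a CPT1A cDNA in a lentiviral vector and their controls (EV, n = 2) the empty vector, both under blasticidin at 5 ug/ml. Each group is 1 selected line, the knockdown used 1 shRNA, and the controls of the 2 arms differ in vector and drug. No label says that replicates came from separate cultures, so p-values measure only the spread between these samples.

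Secretory and membrane proteins enter the ER through the SEC61 channel, are folded there by chaperones that need calcium, ATP and an oxidizing environment, and are returned to the cytosol for proteasomal degradation if they fail to fold. When misfolded protein accumulates, the sensors IRE1, PERK and ATF6 start the unfolded protein response, whose transcription factors XBP1, ATF6 and ATF4 raise many of these genes. Luminal prostate cells secrete abundant protein and depend on this machinery.

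Library totals ranged from 23555205 to 28615770 counts, and the rarest member, DERL3, had at least 187 counts in every sample. CPT1A itself followed the labels, at 265.5 and 262 CPM in NT, 81.2, 86.4 and 86.2 in KD, 326 and 318 in EV and 869.8, 914 and 861 in OE. CPM here are counts scaled to a common library size, with sizes adjusted by the trimmed mean of M values (TMM). The luminal prostate markers KLK3, KLK2, TMPRSS2, FOLH1, HOXB13, KRT8 and KRT18 were present in every sample. KLK3, which encodes prostate-specific antigen, differed between groups, at 2355 and 2576 CPM in NT, 4234, 4649 and 4441 in KD, 3487 and 3336 in EV and 5757, 5946 and 5731 in OE. FOLH1 went the other way, with 1003 ± 15.3 CPM (mean ± SD) for NT against 686 ± 39.8 for KD, and 823 ± 2.1 for EV against 747 ± 17.6 for OE. TMPRSS2 was higher in KD (796 ± 61.9) than in NT (589.5 ± 11.4) and lower in OE (1033 ± 3.4) than in EV (1154 ± 48.2). KRT5, COL1A2, PECAM1, CD3E and JCHAIN, which mark basal cells, fibroblasts, endothelium, T cells and plasma cells, were at 0 in every sample. Other genes of the same marker lists were found at low levels, COL1A1 at 8.46 to 15.6 CPM, VWF at 6.28 to 9.46, PDGFRB at 1.06 to 2.91, KRT14 at 0.34 to 1.85 and MZB1 at 0.49 to 1.54. COL1A1, PDGFRB and KRT14 were higher in every KD sample than in NT and in every OE sample than in EV. Among the plasma cell genes SDC1 was found at 37.7 to 83.6 CPM, highest in KD. The part of these markers in the results was not tested. KD replicate 2 stood further from the other KD samples than they did from each other, with a chi-square of counts per degree of freedom of 7.14 and 7.29 against 2.35 for the other pair, and OE replicate 2 likewise, with 4.05 and 4.69 against 2.23.

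Unless an alternative is named, fold changes and their standard errors (SE) come from one edgeR quasi-likelihood fit over the 10 samples. Every adjusted p is then that test's Benjamini-Hochberg value over 17230 genes. Values under an alternative come from a separate fit, which for the offsets for GC content and gene length covers 14018 genes. A gene rose or fell where the adjusted p was under 0.0001, the limit the study used.

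Several promoters of these genes hold the letters that the unfolded protein response is known to read. The ER stress response element (ERSE, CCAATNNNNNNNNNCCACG) binds NF-Y and ATF6, ERSE-II (ATTGGNCCACG) binds ATF6 or XBP1 with NF-Y, and the unfolded protein response element (UPRE, TGACGTGG) binds XBP1. Both strands were searched in RefSeq promoter windows of GRCh38.p14, from 250 bases before to 50 after each start. Windows were found for 32 of the 36 genes, all but PDIA3, FKBP14, DERL1 and DERL3. An exact ERSE stood in 7 of the 32, HSPA5, HSP90B1, CALR, CANX, CRELD2, PDIA6 and ERO1B, and in 25 of all 27305 genes with a window (0.0916%). ERSE-II stood in HYOU1, SDF2L1 and HERPUD1, and in 19 of all genes (0.0696%). The UPRE stood in HYOU1, where it overlaps an ERSE-II, and in DNAJC10, and in 253 of all genes (0.927%). Any of the 3 motifs stood in 7 of the 20 members with a window that rose in OE versus EV, beside 11 of all 32. For ERSE the counts were 4 and 7, and for ERSE-II 3 and 3. A link between motif and rise was not tested.

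The ERSE sites of all 7 genes are given first, 8 in number, read 5′ to 3′ on the strand of the gene, with the fixed letters of the motif or of its reverse complement in capitals. In the order listed, they lie upstream of a start at chr9:125241379-125241421 (minus strand), chr19:12938372-12938414 (plus), chr22:49918542-49918584 (plus), chr2:10812841-10812883 (minus), chr12:103930204-103930246 (plus), chr12:103930309-103930351 (plus), chr5:179698766-179698808 (plus) and chr1:236282171-236282208 (minus). CANX has several starts, and its site runs across another of them.
HSPA5: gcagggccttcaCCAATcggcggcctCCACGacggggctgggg
CALR: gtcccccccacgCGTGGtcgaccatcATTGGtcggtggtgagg
CRELD2: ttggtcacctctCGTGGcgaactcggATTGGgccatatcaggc
PDIA6: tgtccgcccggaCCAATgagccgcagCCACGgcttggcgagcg
HSP90B1, first: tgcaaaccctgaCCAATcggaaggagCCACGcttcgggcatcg
HSP90B1, second: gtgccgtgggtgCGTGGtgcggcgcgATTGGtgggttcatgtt
CANX: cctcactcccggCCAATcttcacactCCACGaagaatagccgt
ERO1B: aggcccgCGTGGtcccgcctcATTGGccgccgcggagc

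The ERSE-II sites of all 3 genes are given next. They lie at chr11:119057368-119057402 (minus), chr11:119057262-119057296 (minus), chr22:21642102-21642136 (plus) and chr16:56932013-56932047 (plus). HYOU1 holds 2 such sites.
HYOU1, first: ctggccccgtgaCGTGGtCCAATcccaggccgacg
HYOU1, second: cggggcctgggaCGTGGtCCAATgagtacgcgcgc
SDF2L1: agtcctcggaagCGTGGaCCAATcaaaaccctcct
HERPUD1: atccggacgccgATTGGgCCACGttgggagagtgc

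The first question was how these genes differed in CPT1A-overexpressing cells. In OE versus EV, 23 of the 36 rose and 3 fell, SEC63, EDEM3 and DNAJC10, beside 11.6% and 10.3% of all genes tested. Their median log2 fold change was 0.39, against -0.02 for all genes. By group, 8 of 11 chaperones, 4 of 7 disulfide enzymes, 1 of 2 prolyl isomerases, 3 of 4 translocon subunits, 6 of 11 ERAD genes and CREB3L2 rose. Scaling by library size alone moved the median of all genes by -0.10 on the log2 scale and left 15 genes higher and 4 lower. It called 3388 of all genes in either direction, beside 3778 in the main fit. Without EV replicate 2, which leaves 1 EV sample, 13 rose. Every OE sample was above every EV sample in 28 of the 36 genes and below in 4, beside 33.3% and 35.6% of all genes. At an adjusted p of 0.05 the counts were 28 and 4, beside 25.6% and 26.4% of all genes.

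The second question concerned KD versus NT, where the same list split. There 9 genes rose and 7 fell, beside 16.4% and 12.8% of all genes, and the median log2 fold change was 0.0037. The 9 were HSPA5, CALR, SDF2L1, MANF and CRELD2 among chaperones and PDIA3, PDIA4, PDIA6 and ERO1A among disulfide enzymes. The 7 were CANX, DNAJB9, ERO1B, DNAJC10, SEC63, HERPUD1 and SEL1L. Without NT replicate 1 the count of genes that rose was 5, without NT replicate 2 it was 6, and the count that fell was 5 and 4. All KD samples lay above all NT samples in 14 genes and below them in 14, beside 34.9% and 35.7% of all genes. At 0.05, 12 were higher and 12 lower, beside 29.1% and 28.4%.

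**Figure D1:**
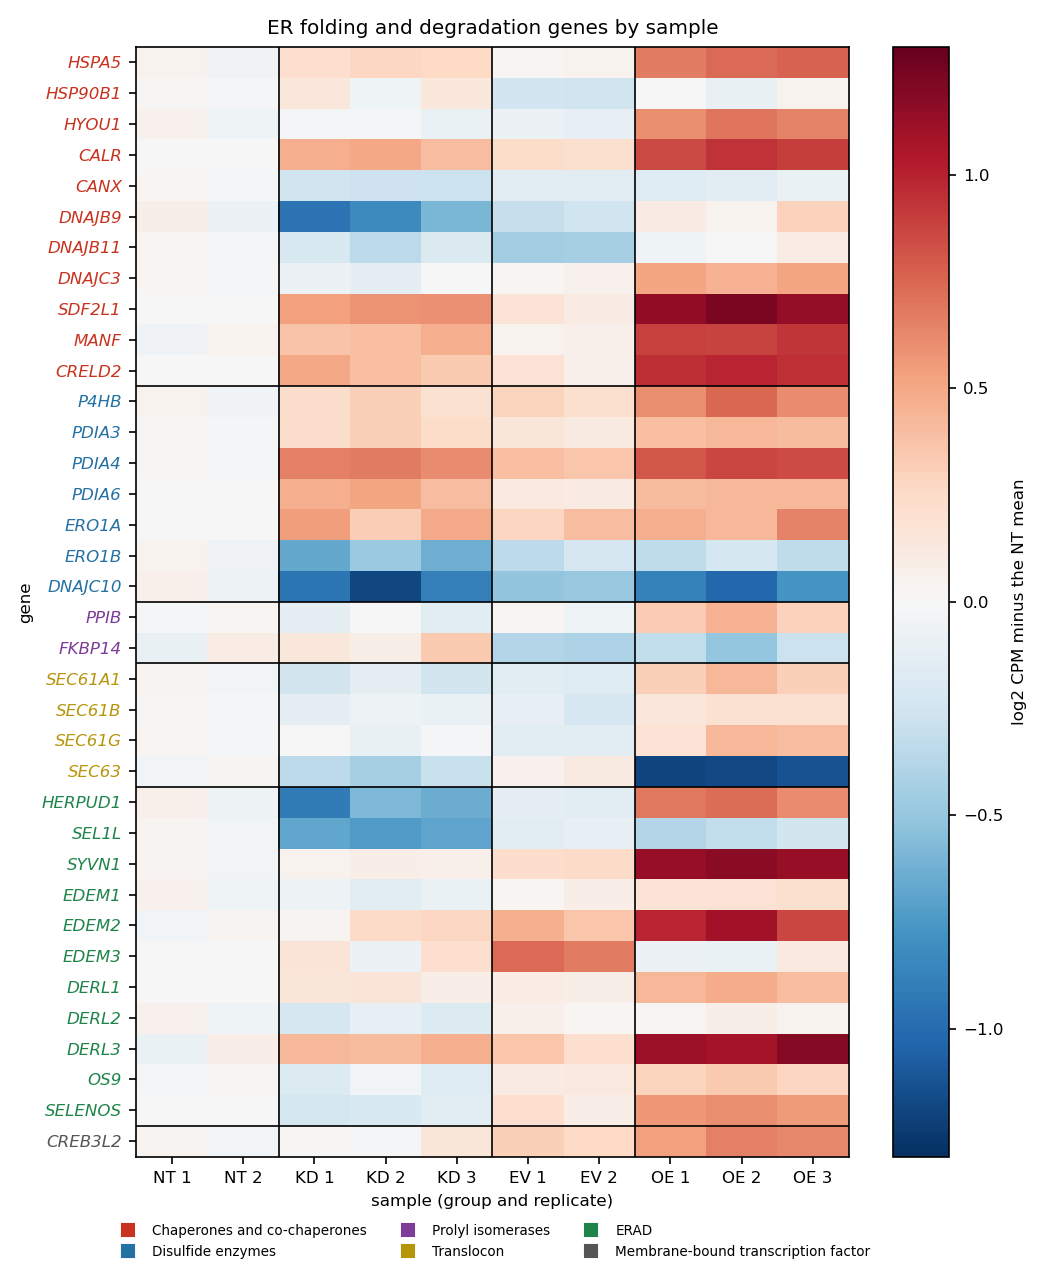
Heat map of the 36 genes (rows, by group) in each of the 10 samples (columns), with colour giving log2 CPM minus the mean of the 2 NT samples. The OE columns are raised over most rows. SEC63, DNAJC10, SEL1L, FKBP14, ERO1B and CANX are lowered in every OE column, and EDEM3, HSP90B1, DNAJB11 and DERL2 are near the NT mean there. The KD columns hold both raised and lowered rows.

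HSPA5 encodes BiP, the Hsp70 of the ER lumen that binds unfolded chains and holds the stress sensors inactive. It was at 762 and 715 CPM in NT, 859, 889 and 885 in KD, 753 and 761 in EV and 1174, 1231 and 1254 in OE. Every OE sample was above every other sample, and KD lay between. It rose in OE versus EV (log2 fold change 0.69 ± 0.05 SE, adjusted p = 3.88e-11) and, by less, in KD versus NT (0.25 ± 0.05, adjusted p = 6.97e-05). The KD call did not hold with an offset for gene length (0.14, adjusted p = 0.0129) or, at a like value, when each arm was fitted alone (0.25, adjusted p = 0.000443).

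HYOU1, the large Hsp70-like partner that exchanges nucleotide on BiP, passed the limit in the OE arm alone. It stood at 428 and 395 CPM in NT, 405, 405 and 388 in KD, 391.6 and 383 in EV and 626, 668 and 645 in OE. The OE samples stood apart, while all others lay between 383 and 428. The change was 0.74 ± 0.05 (log2) in OE versus EV (adjusted p = 1.64e-11) and -0.04 ± 0.05 in KD versus NT (adjusted p = 0.448). With an offset for GC content the KD value was -0.23 and passed as lower (adjusted p = 1.22e-05).

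CALR, the lectin chaperone of the lumen that binds calcium, was at 1035 and 1027 CPM in NT, 1426, 1459 and 1363 in KD, 1218 and 1188 in EV and 1869, 1980.3 and 1919.9 in OE. No group overlapped another. It rose by 0.68 ± 0.05 in OE versus EV (adjusted p = 5.06e-11) and by 0.46 ± 0.05 in KD versus NT (adjusted p = 1.06e-08).

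A set of small lumenal proteins of the folding machinery rose in both arms, as HSPA5 and CALR did. SDF2L1, a partner of the ER Hsp40 proteins, was at 25.1 and 24.8 CPM in NT, 36.2, 37.5 and 37.6 in KD, 28.3 and 26.9 in EV and 55.5, 58.5 and 55.1 in OE. It had the highest log2 fold change of the 36 genes in OE versus EV, 1.03 ± 0.06 (adjusted p = 3.76e-12), beside 0.57 ± 0.06 in KD versus NT (adjusted p = 3.78e-08). MANF, a secreted factor that binds BiP, was at 103 and 109.6 CPM in NT, 137.7, 139.5 and 147 in KD, 109.5 and 111 in EV and 197, 196 and 202 in OE. CRELD2, an ER stress-inducible protein with EGF-like repeats, was at 58.8 and 58.9 CPM in NT, 83.4, 76.9 and 74.7 in KD, 67.2 and 61.7 in EV and 115, 117 and 114 in OE. For both, all OE samples lay above all KD samples, which lay above all controls. MANF rose by 0.84 ± 0.05 in OE (adjusted p = 1.86e-12) and 0.41 ± 0.05 in KD (adjusted p = 1.14e-07). CRELD2 rose by 0.83 ± 0.06 (adjusted p = 2.53e-11) and 0.41 ± 0.06 (adjusted p = 1.03e-06), and its KD call was lost with an offset for GC content (0.21, adjusted p = 0.000743).

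The 3 DnaJ genes of the chaperone group, whose proteins deliver clients to BiP and stimulate its ATPase, did not follow BiP in KD cells. DNAJC10 is described with the disulfide enzymes and SEC63 with the translocon. DNAJB9 (ERdj4) was at 25.8 and 23.4 CPM in NT, 12.7, 13.8 and 16.3 in KD, 20.01 and 20.5 in EV and 26.6, 25.3 and 30.3 in OE. It fell in KD versus NT (-0.78 ± 0.09, adjusted p = 1.53e-07), with every KD sample below every other sample, and its OE versus EV value was 0.44 ± 0.09 (adjusted p = 0.00036). DNAJB11 (ERdj3) was at 67.4 and 64.9 CPM in NT, 57.6, 52.4 and 57.9 in KD, 48.5 and 49.1 in EV and 63.5, 66.3 and 70.7 in OE. It rose in OE versus EV (0.45 ± 0.06, adjusted p = 1.13e-06), but EV was itself below NT, and the OE samples overlapped those of NT. DNAJC3 (P58IPK), which also restrains the kinase PERK, was at 77.2 and 74.7 CPM in NT, 72.1, 69.5 and 76.1 in KD, 77.3 and 79.1 in EV and 108, 104 and 108 in OE. It rose in OE versus EV (0.45 ± 0.05, adjusted p = 1.32e-07) and overlapped its control in KD.

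HSP90B1 (GRP94) and CANX, the membrane-bound counterpart of CALR, were the other chaperones. HSP90B1 passed the limit in neither arm, with 0.24 ± 0.06 in OE versus EV (adjusted p = 0.000805) and 0.08 ± 0.06 in KD versus NT (adjusted p = 0.227). It holds both ERSE sites shown above. CANX fell in KD versus NT (-0.27 ± 0.04, adjusted p = 1.02e-05) and was at 0.01 ± 0.04 in OE versus EV (adjusted p = 0.819). The fall of CANX was not called with an offset for GC content (-0.13, adjusted p = 0.00709) or without either NT replicate.

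**Figure D2:**
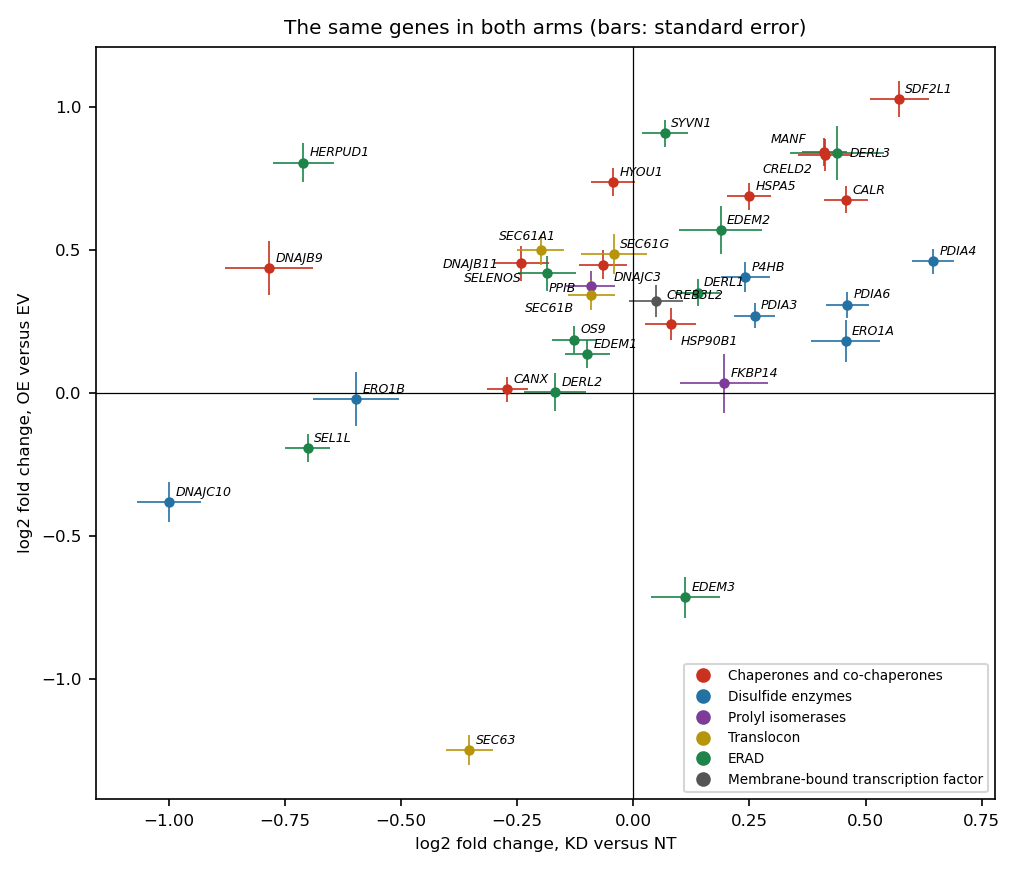
Log2 fold change of each gene in KD versus NT (horizontal) and OE versus EV (vertical), with bars of 1 standard error and colours for the gene groups. Of the red chaperones 6 lie at the upper right and 5 (HYOU1, CANX, DNAJB9, DNAJB11 and DNAJC3) at the upper left. HERPUD1 and the SEC61 genes are among the others at the upper left. Blue disulfide enzymes lie mostly at the upper right, and SEC63 and DNAJC10 at the lower left.

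Among the disulfide enzymes, 3 of the 4 protein disulfide isomerases, which form and reshuffle disulfide bonds, rose in both arms. PDIA3 (ERp57), which works with CALR and CANX, was at 644 and 627 CPM in NT, 747, 789 and 749.9 in KD, 707 and 690.5 in EV and 833, 855 and 843 in OE. PDIA4 (ERp72) was at 302 and 296 CPM in NT, 469, 476 and 457 in KD, 393 and 385 in EV and 522, 545 and 538 in OE. PDIA6 (P5), which also acts on the sensor IRE1, was at 196 and 198 CPM in NT, 273, 280.2 and 259.7 in KD, 215 and 211 in EV and 262, 266 and 266 in OE. In all 3 genes NT was lowest, and the KD and OE samples of PDIA6 overlapped.

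PDIA4 rose by 0.65 ± 0.04 in KD versus NT (adjusted p = 1.03e-11), the highest value of the 36 genes in that arm, and by 0.46 ± 0.04 in OE versus EV (adjusted p = 8.32e-09). PDIA6 rose by 0.46 ± 0.05 in KD (adjusted p = 5.87e-09) and 0.31 ± 0.05 in OE (adjusted p = 4.11e-06). PDIA3 rose by 0.26 ± 0.04 in KD (adjusted p = 2.23e-05) and 0.27 ± 0.04 in OE (adjusted p = 1.77e-05), and its KD call was lost, at a like value, when each arm was fitted alone (0.26, adjusted p = 0.000223). P4HB, the most studied isomerase and a subunit of prolyl 4-hydroxylase, rose in OE versus EV (0.41 ± 0.05, adjusted p = 7.56e-07) and was at 0.24 ± 0.05 in KD versus NT (adjusted p = 0.000382).

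The 2 ER oxidases, which reoxidize the isomerases with oxygen, moved in opposite directions in KD cells. ERO1A was at 31.8 and 31.8 CPM in NT, 46.4, 39.8 and 44.6 in KD, 38.6 and 41.9 in EV and 44.2, 42.8 and 49.9 in OE. It rose in KD versus NT (0.46 ± 0.07, adjusted p = 1.26e-05), and the KD samples overlapped both EV and OE. ERO1B fell in KD versus NT (-0.60 ± 0.09, adjusted p = 6.46e-06), from 14.1 to 14.9 CPM in NT to 9.12 to 10.4 in KD. When each arm was fitted alone the values were nearly the same but fell just short of the limit, at 0.46 for ERO1A (adjusted p = 0.000118) and -0.59 for ERO1B (adjusted p = 0.000107). With GC content as an offset ERO1B was at -0.34 (adjusted p = 0.00483).

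DNAJC10 (ERdj5), a reductase that opens disulfides of proteins bound for degradation, was at 236 and 217 CPM in NT, 117, 99.7 and 122 in KD, 159 and 160.4 in EV and 123, 112 and 132.8 in OE. NT was highest, EV between, and KD and OE overlapped. It fell in KD versus NT (log2 fold change -0.999 ± 0.07, adjusted p = 8.34e-12), the lowest value of the 36 genes in that arm. Its fall in OE versus EV (-0.38 ± 0.07, adjusted p = 6.9e-05) was absent with an offset for GC content (-0.03, adjusted p = 0.664).

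PPIB, the prolyl isomerase cyclophilin B, was at 507 and 523 CPM in NT, 473, 512 and 466 in KD, 523 and 496 in EV and 647, 703 and 632 in OE. It rose in OE versus EV (0.37 ± 0.05, adjusted p = 2.39e-06) and overlapped its control in KD. The OE call was lost with an offset for gene length (0.19, adjusted p = 0.0012). FKBP14, an isomerase for collagens, was at 13.8 and 15.7 CPM in NT, 16.4, 15.5 and 18.6 in KD, 11.3 and 11.1 in EV and 11.8, 10.4 and 12.1 in OE. It passed the limit in neither arm, and the samples of the OE arm lay below those of the KD arm, controls included.

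The 3 SEC61 genes of the list rose in OE cells. SEC61A2, a rarer paralog of the channel outside the list, had a log2 fold change of -0.33 ± 0.15 (SE) in OE versus EV (adjusted p = 0.0715). SEC61A1, the channel itself, was at 758 and 718 CPM in NT, 625, 679 and 625 in KD, 672 and 656 in EV and 912, 994 and 913 in OE. SEC61B, a small tail-anchored subunit, was at 77.1 and 75.9 CPM in NT, 70.4, 73.0 and 72.2 in KD, 71.1 and 65.6 in EV and 84.6, 87.9 and 87.5 in OE. In both, OE was highest and NT next. SEC61A1 rose by 0.50 ± 0.05 (adjusted p = 2.56e-08), SEC61G by 0.49 ± 0.07 (adjusted p = 3.7e-06) and SEC61B by 0.34 ± 0.05 (adjusted p = 6.49e-06). Their KD versus NT values were -0.20, -0.04 and -0.09, with adjusted p of 0.00171, 0.64 and 0.141. The OE calls of SEC61G (0.31, adjusted p = 0.000942) and SEC61B (0.18, adjusted p = 0.00407) were lost with an offset for gene length.

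SEC63, which recruits BiP to the channel for post-translational import, went the other way. It was at 114 and 119 CPM in NT, 92.2, 86.6 and 95.6 in KD, 121 and 126 in EV and 51.2, 51.9 and 53.2 in OE. The OE samples were lowest, KD next, and the controls highest. Its log2 fold change of -1.25 ± 0.05 in OE versus EV (adjusted p = 4.36e-15) was the lowest of the 36 genes, beside -0.35 ± 0.05 in KD versus NT (adjusted p = 2.27e-06). With an offset for GC content the OE value was -0.95 (adjusted p = 1.05e-15) and the KD value -0.20 (adjusted p = 0.00011).

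SEC63 lies at chr6:107867756-107958208 (GRCh38, GENCODE 44). The 20 tested genes nearest to it, 10 on each side over 4.27 Mb, all had lower values in OE than in EV, 11 of them past the limit, with a median log2 fold change of -0.71. SEC63 was 0.54 below that median (-0.54). For KD against NT the neighbours had a median of -0.06. The share of the neighbourhood in the value of SEC63 was not tested. Lowered neighbourhoods were not particular to SEC63. In OE versus EV the 20 neighbours of DNAJB9 had a median of -0.58, with 18 lower and 11 past the limit, those of DNAJC3 were at -0.41 and those of CANX at -0.37, while the neighbours of CALR were at 0.32 with 9 past the limit as higher.

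**Figure D3:**
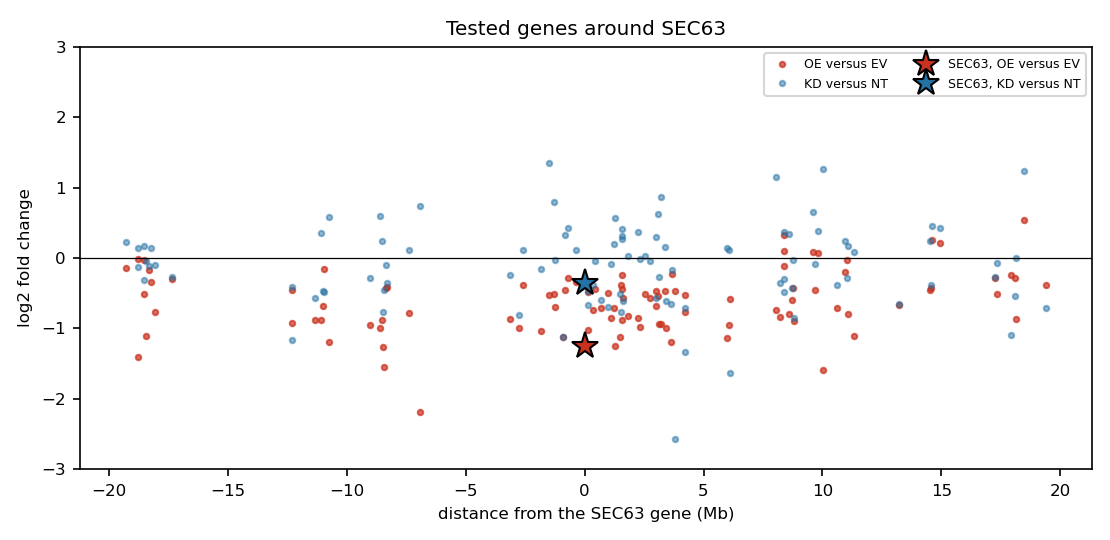
Log2 fold change of the tested genes around SEC63 within 20 Mb of it against their distance in megabases, in OE versus EV and KD versus NT. In OE versus EV every one of the 20 nearest genes lies below 0 and SEC63 (star) lies lower than their median of -0.71. Most of the genes further out lie below 0 too.

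HERPUD1, which gathers the membrane complex for degradation and is itself quickly turned over, was the member whose arms differed most. It was at 183 and 166 CPM in NT, 92.7, 116 and 111 in KD, 161 and 157 in EV and 280.1, 288 and 268 in OE. All KD samples lay below all controls and all OE samples above. It rose by 0.81 ± 0.07 in OE versus EV (adjusted p = 8.45e-10) and fell in KD versus NT (-0.71 ± 0.07, adjusted p = 2.1e-09). HERPUD1 was the only one of the 36 that rose in OE and fell in KD, a pair of calls shared by 0.772% of all genes tested.

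SYVN1 (HRD1), the ubiquitin ligase of this complex, and SEL1L, the adaptor that holds it together, separated. SYVN1 was at 68.9 and 65.5 CPM in NT, 69.4, 71.5 and 70.6 in KD, 78.9 and 79.6 in EV and 147, 151 and 148 in OE. SEL1L was at 192 and 184 CPM in NT, 118, 113 and 117 in KD, 171 and 175 in EV and 145, 150.5 and 159.8 in OE. So SYVN1 was highest in OE while SEL1L was highest in the controls and lowest in KD. SYVN1 rose by 0.91 ± 0.05 in OE versus EV (adjusted p = 4.23e-13) and was at 0.07 ± 0.05 in KD versus NT (adjusted p = 0.245). SEL1L fell in KD versus NT (-0.70 ± 0.05, adjusted p = 1.16e-11), and its OE versus EV value of -0.19 ± 0.05 (adjusted p = 0.00215) became 0.11 once GC content was an offset in the fit (adjusted p = 0.0315).

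The EDEM proteins trim mannose from glycoproteins and so mark them for removal. EDEM2 was at 15.4 and 16.1 CPM in NT, 16.1, 18.7 and 18.9 in KD, 21.7 and 20.1 in EV and 31.1, 33.4 and 28.7 in OE. It rose in OE versus EV (0.57 ± 0.08, adjusted p = 3.81e-06). EDEM3 was at 55.6 and 55.2 CPM in NT, 62.4, 52.5 and 64.4 in KD, 92.5 and 88.3 in EV and 52.6, 52.2 and 60.5 in OE. Its fall in OE versus EV (-0.71 ± 0.07, adjusted p = 1.69e-08) was set against EV samples that stood above all others, and the OE samples overlapped those of the KD arm. EDEM1 passed in neither arm (0.14 ± 0.05 in OE, adjusted p = 0.0214).

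SELENOS, a selenoprotein that ties the ATPase VCP to the membrane, was at 34.4 and 34.2 CPM in NT, 29.2, 29.9 and 31.2 in KD, 39.8 and 36.4 in EV and 50.6, 52.2 and 50.2 in OE. It rose in OE versus EV (0.42 ± 0.06, adjusted p = 3.87e-06) and was at -0.19 ± 0.06 in KD versus NT (adjusted p = 0.0147). The OE call was lost with an offset for gene length (0.22, adjusted p = 0.00357). Of the Derlins, which form part of the exit channel, DERL3 (0.84 ± 0.10, adjusted p = 1.05e-07) and DERL1 (0.35 ± 0.05, adjusted p = 1.56e-06) rose in OE versus EV, and DERL2 was at 0.00 ± 0.07 (adjusted p = 0.96). The lectin OS9, which reads trimmed glycans, passed in neither arm, with 0.19 ± 0.05 in OE (adjusted p = 0.00224) and -0.13 ± 0.05 in KD (adjusted p = 0.0286). CREB3L2 rose in OE versus EV (0.32 ± 0.06, adjusted p = 3.73e-05) and was at 0.05 ± 0.06 in KD versus NT (adjusted p = 0.485).

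**Figure D4:**
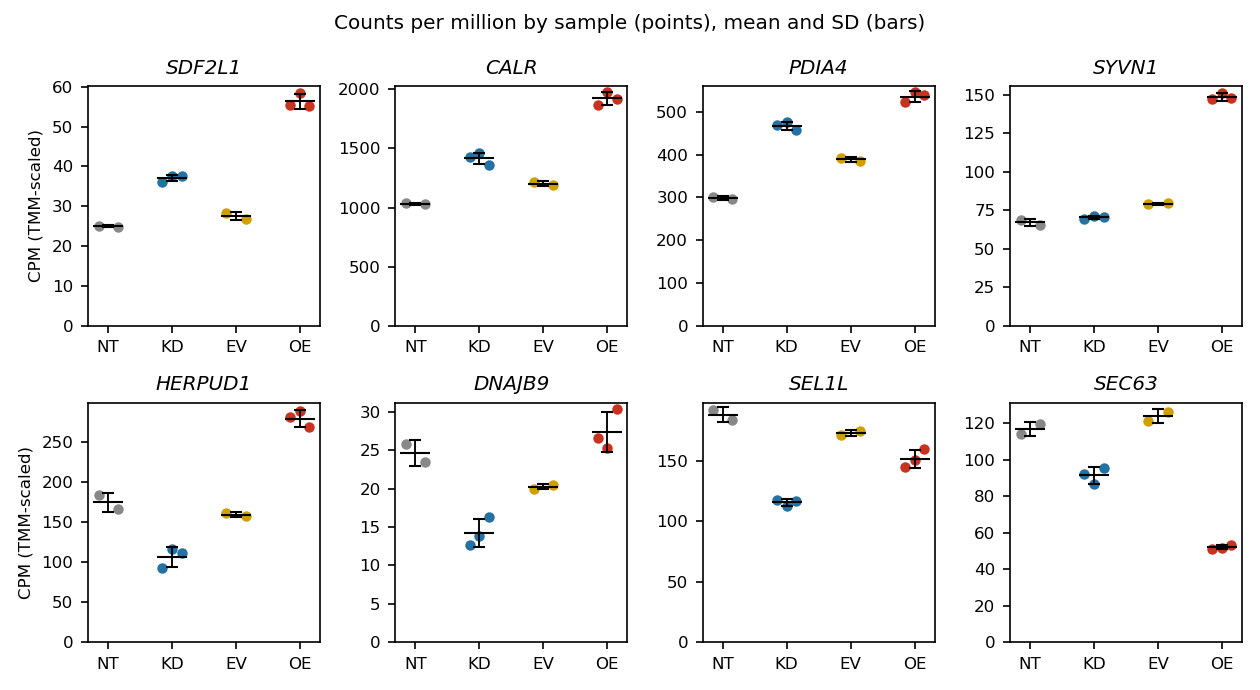
CPM of selected genes in every sample (points) by group, with a bar at the group mean and whiskers of 1 SD (n = 2 in NT and EV, n = 3 in KD and OE). SDF2L1, CALR and PDIA4 are higher in both KD and OE than in their controls, SYVN1 is high in OE, HERPUD1 is lowest in KD and highest in OE, DNAJB9 and SEL1L are lowest in KD, and SEC63 is lowest in OE.

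Set side by side, 8 genes rose in both arms, namely HSPA5, CALR, SDF2L1, MANF, CRELD2, PDIA3, PDIA4 and PDIA6, a pattern found in 5.30% of all genes tested. DNAJC10 and SEC63 fell in both (3.73% of all genes). In OE alone 14 genes passed as higher (5.56%), among them the 3 SEC61 subunits and 5 ERAD genes, SYVN1, EDEM2, DERL1, DERL3 and SELENOS. Passing in one arm only does not show that the arms differ, so the difference was tested directly.

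The interaction, OE versus EV minus KD versus NT, was positive past the limit in 14 genes and negative in 2, SEC63 and EDEM3, beside 6.94% and 8.98% of all genes. The 14 were 6 chaperones (HSPA5, HYOU1, DNAJB9, DNAJB11, DNAJC3 and MANF), DNAJC10, PPIB, SEC61A1, SEC61B and 4 ERAD genes (HERPUD1, SEL1L, SYVN1 and SELENOS). HERPUD1 had the highest difference, 1.52 ± 0.09 on the log2 scale (adjusted p = 5.03e-12), followed by DNAJB9 with 1.22 ± 0.13 (adjusted p = 6.72e-08). Of the 7 disulfide enzymes DNAJC10 alone passed, since it fell further in KD than in OE (0.62 ± 0.10, adjusted p = 1.61e-05). For 2 of these genes OE and KD lay close and the controls apart. DNAJC10 was at 0.12 in OE versus KD directly and -0.50 in EV versus NT, and EDEM3 at -0.12 and 0.71. DNAJB11 was at 0.26 and -0.44, so its controls also differed by more than OE and KD did.

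The interaction of the 4 isomerases did not pass the limit. PDIA3 was at 0.01 ± 0.06 (95% interval -0.11 to 0.13, adjusted p = 0.905), PDIA6 at -0.15 ± 0.06 (-0.28 to -0.03, adjusted p = 0.0594), PDIA4 at -0.18 ± 0.06 (-0.31 to -0.06, adjusted p = 0.0185) and P4HB at 0.17 ± 0.07 (0.02 to 0.31, adjusted p = 0.0733). For the chaperones CALR (0.22 ± 0.07, adjusted p = 0.00868), CRELD2 (0.42 ± 0.08, adjusted p = 0.000111) and SDF2L1 (0.46 ± 0.09, adjusted p = 0.000163) the difference did not pass. Scaling by library size alone, which shifts the interaction of all genes by -0.13, left 6 genes positive and 3 negative. It called 2820 of all genes in either direction, beside 2744 in the main fit. HSPA5, DNAJC3, MANF, DNAJC10, PPIB, SEC61B, SEL1L and SELENOS were then no longer called. Without EV replicate 2 the positive count was 8, and without NT replicate 1 it was 9. At an adjusted p of 0.05, 26 were positive and 4 negative, beside 20.3% and 24% of all genes. An offset for GC content gave 19 positive and 2 negative, beside 10.5% and 11.8% of all genes. With an offset for gene length the positive count stayed at 14, beside 2422 of all genes called in either direction. HSPA5 (0.35, adjusted p = 0.000129), MANF (0.29, adjusted p = 0.00224) and SEC61B (0.37, adjusted p = 0.000119) were then not called, while CANX, OS9 and CREB3L2 were.

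The 2 control lines were compared because each arm is read against its own. In EV versus NT 2 genes passed as higher, EDEM3 (0.71 ± 0.08, adjusted p = 2.41e-07) and PDIA4 (0.38 ± 0.05, adjusted p = 1.62e-06), and 2 as lower, DNAJC10 (-0.50 ± 0.08, adjusted p = 1.45e-05) and DNAJB11 (-0.44 ± 0.07, adjusted p = 1.44e-05), beside 5.25% and 2.91% of all genes. These calls rested on all 4 control samples, and those of PDIA4, DNAJC10 and DNAJB11 were each lost without at least 1 of them. At 0.05, 9 were higher and 9 lower, beside 18.5% and 15.5% of all genes. Vector and drug cannot be told apart in this comparison. OE compared with KD directly gave 23 genes higher and 2 lower (15.5% and 16.4% of all genes).

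The gene groups were also read sample by sample. Relative to NT, the median over the 11 chaperones of the log2 level was 0.61, 0.70 and 0.65 in the OE samples, 0.03 and 0.04 in EV, and 0.15, -0.02 and 0.14 in KD. The medians of the disulfide enzymes were 0.41, 0.43 and 0.43 in OE, 0.15 and 0.12 in EV and 0.23, 0.31 and 0.24 in KD. Those of the ERAD genes were 0.43, 0.48 and 0.40 in OE, 0.10 and 0.09 in EV and -0.07, -0.08 and -0.09 in KD. For the 4 translocon subunits they were 0.17, 0.32 and 0.25 in OE, -0.12 and -0.16 in EV and -0.18, -0.11 and -0.16 in KD. Together the 36 genes held 1.14% to 1.17% of all counts in OE, 0.925% to 0.933% in EV, 0.980% to 1.00% in KD and 0.897% to 0.923% in NT.

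Fold changes in OE versus EV also varied with the base composition of transcripts over all genes. Across 14018 genes with a GENCODE 44 transcript the Spearman coefficient of log2 fold change with GC content was 0.45, a description with no test, and the medians of 5 equal classes of genes from low to high GC were -0.33, -0.15, 0.03, 0.15 and 0.26. In KD versus NT the coefficient was 0.22. A fit with GC content as an offset was added after the data were seen, and there 26 of the 36 genes passed as higher and 2 as lower for OE against EV, beside 9.94% and 9.75% of all genes. All 11 chaperones were then higher, HSP90B1 (0.44), CANX (0.29) and DNAJB9 (0.80) included, while P4HB was no longer called (0.19, adjusted p = 0.000237). For KD against NT the offset gave 9 higher and 9 lower, beside 17.9% and 16.9% of all genes. HYOU1 (-0.23), DNAJB11 (-0.27), PPIB (-0.26), SEC61A1 (-0.36) and OS9 (-0.31) were then called lower and EDEM3 (0.30) higher, while CANX, ERO1B, SEC63 and CRELD2 were no longer called. Fold changes in OE versus EV varied with gene length too (Spearman coefficient -0.30, no test). A length offset, also added later, left 19 of the 36 higher and 2 lower there, beside 3070 of the 14018 genes called in either direction. PPIB, SEC61B, SEC61G and SELENOS were then not called as higher, nor DNAJC10 as lower.

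**Figure D5:**
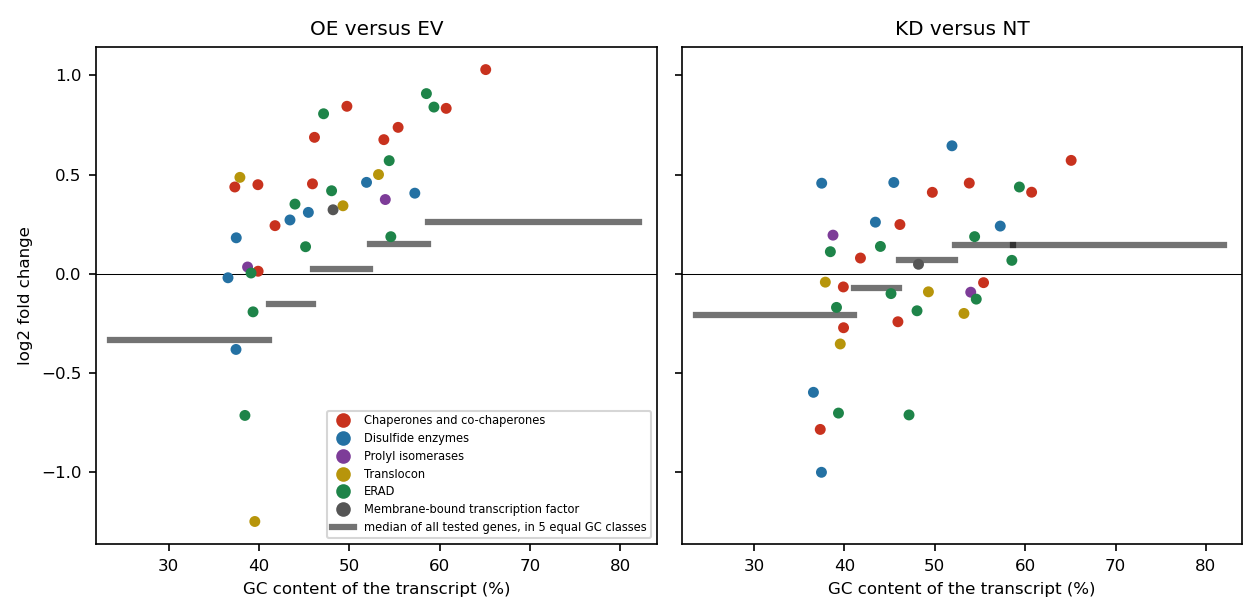
Log2 fold change (vertical) in OE versus EV (left) and KD versus NT (right) against transcript GC content in percent (horizontal) for the 36 genes, over bars for the median of all genes in each of 5 equal GC classes. In OE versus EV all genes run from a median of -0.33 in the lowest class to 0.26 in the highest, and most of the 36 lie above the bar of their own class, while in KD versus NT they lie on both sides.

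Another 101 tested ER genes, in 6 lists of the same machinery, were read for comparison. In OE versus EV 30 rose and 11 fell (40.6% called), beside 11.6% and 10.3% of all genes. In KD versus NT 15 rose and 24 fell, beside 16.4% and 12.8%. The interaction was positive in 22 and negative in 6, beside 6.94% and 8.98%. Several counts here and in the single lists lie near these shares. Among 12 sensors and factors of the unfolded protein response, 4 rose in OE versus EV. Of these, XBP1 was at 370.1 ± 6.8 CPM in NT (mean ± SD), 233 ± 19.1 in KD, 333 ± 11.7 in EV and 513 ± 23.4 in OE, and it rose in OE (0.62 ± 0.06 SE, adjusted p = 3.89e-09) and fell in KD (-0.67 ± 0.06, adjusted p = 3.43e-10). PPP1R15A, a regulatory subunit of the phosphatase that acts on eIF2 alpha, likewise rose in OE (0.61 ± 0.10, adjusted p = 1.11e-05).

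Of these 12, 2 rose in KD versus NT and 6 fell, beside 16.4% and 12.8% of all genes. DDIT3, which encodes the stress factor CHOP, fell from 82.1 ± 3.6 CPM in NT to 11.5 ± 1.1 in KD (-2.83 ± 0.08, adjusted p = 1.94e-18), and was at 51.3 ± 4.4 in EV and 54.5 ± 4.5 in OE. CREB3L1 rose in KD (2.56 ± 0.35, adjusted p = 1.23e-06), but from 0.27 to 1.63 CPM, with 7 to 52 counts per sample.

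Counts of the other 5 lists in OE versus EV stand beside 11.6% higher and 10.3% lower over all genes. Of 22 further folding enzymes 4 rose and 2 fell, with FKBP11 at 0.72 ± 0.07 (adjusted p = 4.66e-09) and PPIC at -0.94 ± 0.10 (adjusted p = 7.87e-08). Of 11 co-chaperones and retrieval genes 5 rose and 1 fell, with KDELR1, a receptor that returns lumenal proteins from the Golgi, at 0.56 ± 0.05 (adjusted p = 4.25e-09). Of 14 N-glycan genes 4 rose and 2 fell, with the oligosaccharyltransferase subunit RPN1 at 0.48 ± 0.05 (adjusted p = 1.43e-08) and the folding sensor UGGT2 at -0.72 ± 0.10 (adjusted p = 2.78e-06). Of 21 targeting and signal peptidase genes 7 rose and 2 fell, with the signal peptide peptidase HM13 at 0.69 ± 0.05 (adjusted p = 3.57e-10). SEC62, which works beside SEC63 in post-translational import, fell in OE (-0.49 ± 0.07, adjusted p = 1.87e-06) and in KD (-0.67 ± 0.07, adjusted p = 4.56e-09).

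Of 21 further ERAD genes 6 rose and 4 fell in OE versus EV, beside 11.6% and 10.3% of all genes. UFL1, the UFM1 ligase, was at -0.88 ± 0.11 (adjusted p = 2.33e-07) and the ubiquitin ligase MARCH6 at -0.62 ± 0.05 (adjusted p = 1.4e-10). UFL1 lies at -11.3 Mb from SEC63, among the lower genes around it. In KD versus NT 5 of the 21 rose and 3 fell, beside 16.4% and 12.8% of all genes. VCP, the ATPase that pulls proteins out of the membrane, rose in KD (0.78 ± 0.05, adjusted p = 6.04e-12), and UFM1 fell (-0.66 ± 0.05, adjusted p = 1.15e-10).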

How the data were processed

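Per the study's methods, poly(A) libraries were sequenced in pairs, trimmed with BBDuk and aligned with STAR 2.6.0a to Ensembl release 96 of GRCh38. Strandedness and the handling of reads with several matches are not given in the sources used here. The authors deposited 1 table of raw counts per gene symbol for the 10 samples, and no per-sample column was left out (0). Groups came from the sample labels. Genes were filtered with filterByExpr, scaled by TMM and fitted over all samples with edgeR 4.0.16 (quasi-likelihood test, R 4.3.3). Comparisons were OE versus EV, KD versus NT, their interaction and EV versus NT, at a Benjamini-Hochberg adjusted p of 0.0001. SE is the log2 fold change over the square root of F. The members and lists were chosen with earlier results of these data known. Values in every sample are given for genes called in at least 2 of the 4 comparisons or among the 3 largest changes of one in either direction, and at most 2 genes are named per further list and comparison. Alternatives used DESeq2 1.42.0 and limma 3.58.1, other scaling, filters and limits, a replicate block, each arm alone, leave-one-out and, chosen after seeing the data, offsets for GC content and gene length. The script was tested on simulated counts. With at least 23555205 counts per sample, precision is limited by the few replicates and, in the rarest members, by counting error. CPM and all tests cover RNA, not protein. Some luminal marker values are not reported here.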

Additional observations from a re-analysis of the deposited data

How the results depend on the processing

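DESeq2 size factors and limma-voom changed none of the 144 calls on single genes (36 in 4 comparisons). Of 39 sign changes in all alternatives, 34 had an adjusted p of at least 0.05 in both fits and 0 were called in either. The other 5 were with the GC offset, ERO1B (0.36) and SEL1L (0.11) for OE against EV, SEC61G (0.17) and SYVN1 (-0.13) for KD against NT, and PDIA3 (-0.12) in the interaction with library size only. The cause was not tested. Members higher in OE versus EV numbered 15 with library size only, 11 with an absolute log2 fold change of at least 0.5 and 13 to 25 with 1 sample left out, and those lower 2 to 3. All genes called there numbered 3778, 8956 at an adjusted p of 0.05, 2165 at the fold limit and 1740 to 4969 by leave-one-out. In KD versus NT, members higher numbered 2 at the fold limit and 5 to 9 by leave-one-out. Members lower numbered 4 with each arm alone, 12 at 0.05 and 4 to 8 by leave-one-out. All genes numbered 5022, 9905 at 0.05, 3347 at the fold limit and 3110 to 5339 by leave-one-out. In the interaction, members higher numbered 6 with library size only, 26 at 0.05, 23 for OE minus KD directly and 8 to 19 by leave-one-out, and those lower 4 at 0.05 and 2 in every leave-one-out fit. All genes numbered 2744, 7631 at 0.05 and 1786 to 3696 by leave-one-out. In EV versus NT, members higher numbered 5 with no filter, 8 with each arm alone, 9 at 0.05, 1 at the fold limit and 1 to 5 by leave-one-out. Members lower numbered 1 with library size only, 9 at 0.05, 1 at the fold limit, 4 with the GC offset and 0 to 3 by leave-one-out. All genes numbered 1406, 2306 with no filter, 3122 with each arm alone, 5867 at 0.05, 816 at the fold limit and 509 to 2438 by leave-one-out. The highest counts by leave-one-out came without KD replicate 2.

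Samples of like replicate number showed little shared deviation from their group means. The mean correlation was 0.005 over 13 same-numbered pairs (-0.06 to 0.171) and -0.003 over 24 others (-0.141 to 0.091). Deviations centred within groups of 2 or 3 are tied to each other, so these means cannot exclude pairing. With the replicate block, members higher and lower numbered 23 and 3 for OE against EV, 9 and 7 for KD against NT, 16 and 2 for the interaction and 2 and 2 between the controls. All genes called with the block numbered 4258, 5236, 3108 and 1780 in the same order. HSPA5 lost its call in KD with the block (0.24, adjusted p = 0.000127). A left-out control leaves 1 sample in its group, which is then assumed to vary like the other groups. Counting error weighs most on the rarest members, DERL3, FKBP14 and ERO1B, with at least 187, 230 and 238 counts per sample.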
